A study of Mus musculus with 8 samples.

Results

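The bone morphogenetic protein (BMP) ligands Bmp2, Bmp4, Bmp5 and Bmp7 and the BMP response genes Id1, Id2, Id3, Msx1, Msx2 and Smad6 were followed across genotypes, stages and cell classes of mouse chimaeras. They were taken by gene name and are 10 of the 55422 features that were counted. The chimaeras were made with ES cells that lack Tet1, Tet2 and Tet3 (Tet-TKO) and carry a CAG-driven H2B-tdTomato label. These cells were injected into C57BL/6J blastocysts, which were carried by CD1 recipients. Pooled embryos were sorted into tdTomato+ Tet-TKO cells and tdTomato- WT host cells for 10x single-cell RNA-seq, giving 4 Tet-TKO and 2 WT host libraries at embryonic day (E) 8.5 and 1 library of each genotype at E7.5. The Tet-TKO cells derive from 1 ES cell line of mixed C57BL/6J and 129Sv background, so that genotype, strain and passage through culture cannot be told apart, and the host cells shared an embryo with mutant cells. From cell type proportions, the paper infers a slight delay of the E8.5 Tet-TKO samples, which match somewhat younger reference embryos. A difference in stage was not tested here and cannot be told apart from genotype either. Nothing in the labels says that the E8.5 libraries came from separate pools of embryos, and p-values measure the spread between libraries, which may be technical.

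BMP ligands are secreted growth factors of the TGF-beta family. They bind pairs of type I and type II receptor kinases, which phosphorylate SMAD proteins that enter the nucleus with SMAD4 and switch on genes such as the Id and Msx genes. Before and during gastrulation BMP4 comes from the extraembryonic ectoderm and later from extraembryonic mesoderm, and it is needed for posterior mesoderm, the allantois and primordial germ cells. ID proteins bind basic helix-loop-helix transcription factors and keep them from DNA, MSX proteins are homeobox repressors, and SMAD6 is an inhibitory SMAD that is induced by the pathway and dampens it.

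In the GENCODE M21 annotation of mm10 the members are protein-coding genes at 10 separate positions. Of the ligands, Bmp2 lies at chr2:133552159-133562885 on the plus strand, Bmp4 at chr14:46383520-46390669 on the minus strand, Bmp5 at chr9:75775364-75900310 on the plus strand and Bmp7 at chr2:172868012-172940321 on the minus strand. Of the Id genes, Id1 lies at chr2:152736251-152737410 on the plus strand, Id2 at chr12:25093799-25097140 on the minus strand and Id3 at chr4:136143497-136145755 on the plus strand. Msx1 lies at chr5:37820485-37824583, Msx2 at chr13:53466884-53473074 and Smad6 at chr9:63953076-64022059, all on the minus strand.

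TET enzymes oxidise methylated cytosine, which in mammals sits mostly in CpG dinucleotides, so the CpG content of the promoters is given here. Methylation itself was not measured in these libraries. In single-cell methylation data from other sorted cells of such chimaeras, the paper reported TET-dependent demethylation at distal regulatory elements. It found negligible effects at promoters, where methylation stayed low in both genotypes. Distal elements of the members were not examined here. RefSeq promoter sequences on GRCm38.p6 were found for 7 of the 10 members, and Bmp2, Bmp7 and Id1 had no entry. The 250 bases before the start held 27 CpG in Smad6, 20 in Msx1, 18 each in Id2 and Id3, 16 in Msx2, 11 in Bmp4 and 4 in Bmp5. Over the same stretch of all 32851 promoters the median was 6 CpG, with quartiles of 2 and 16. The palindrome GGCGCC, known as a binding element of BMP-activated SMADs, was present before Id2 and was not found before the other 6 members, and 9.59% of all promoters hold it in this window. GTCTG or, on the other strand, CAGAC, the core of another SMAD element, was present before Bmp5 and Id3, and 42.2% of all promoters hold it. The stretches of Id3 and Msx2 lie wholly in annotated exons of the GENCODE gene models. The promoters of 3 members are printed 5′ to 3′ as read on the strand of the gene, with CpG in capitals: that of Bmp4, which had the highest log2 fold change of the members over whole libraries (chr14:46390670-46390919, minus strand), that of Msx1, which was called in erythroid-like cells (chr5:37824586-37824835, minus strand), and 89 bases before the RefSeq start of Id2 that overlap no annotated exon (chr12:25096254-25096342, minus strand), since Id2 was below WT host in most classes. The Id2 bases lie within the longer GENCODE gene model, and the GGCGCC motif is among them.
Bmp4: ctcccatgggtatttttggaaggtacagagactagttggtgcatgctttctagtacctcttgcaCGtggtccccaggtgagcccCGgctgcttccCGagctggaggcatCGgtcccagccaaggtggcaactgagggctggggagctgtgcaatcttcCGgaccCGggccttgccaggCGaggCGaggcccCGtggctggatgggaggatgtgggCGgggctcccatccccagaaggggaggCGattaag
Msx1: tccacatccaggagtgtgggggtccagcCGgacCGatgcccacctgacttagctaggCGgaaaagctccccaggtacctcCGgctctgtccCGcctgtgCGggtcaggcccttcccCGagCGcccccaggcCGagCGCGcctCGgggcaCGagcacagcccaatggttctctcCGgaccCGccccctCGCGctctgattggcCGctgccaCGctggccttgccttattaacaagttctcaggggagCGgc
Id2: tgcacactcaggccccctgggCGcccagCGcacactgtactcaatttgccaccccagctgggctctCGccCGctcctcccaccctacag

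The libraries held between 65601218 and 136982886 UMIs (unique molecular identifiers, each counting 1 captured RNA molecule), and 37190 cells at E8.5 and 12652 at E7.5 passed quality control. The tdTomato transcript was at 71.5 to 145 counts scaled to a common library size (CPM) in the Tet-TKO libraries and at 0.444 to 0.938 CPM in the WT host libraries. Tet1 was still counted in the E8.5 Tet-TKO libraries (9.92 to 20.9 CPM, against 20.4 and 22.6 CPM in WT host), as were Tet2 (5.55 to 10.5 CPM, against 4.63 and 4.67 CPM) and Tet3 (22.5 to 37.5 CPM, against 23.1 and 23.2 CPM), but 3′ counts outside the deleted part of a gene do not check the knockout. Tet-TKO libraries 1 and 2 were closely alike, as were libraries 3 and 4 (chi-square per degree of freedom of 19.6 and 22.7, against 227 to 244 for the other pairs of Tet-TKO libraries and 180 for the WT host pair), although no pair agreed within sampling noise. Cell barcodes shared by any pair of libraries numbered between 0 and 28. Cells were grouped into 30 classes at E8.5 by clustering without the members and other BMP pathway genes. Of these, 24 had the markers of a cell type and are called by its name with "-like", and 6 are given by cluster number. The 26 classes with 10 cells in at least 2 libraries of each genotype were compared between the genotypes.

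In WT host cells at E8.5 the ligands had their highest levels in extraembryonic and lateral mesoderm and in the heart. Bmp4 was highest in the mesenchyme-like class (252 ± 9.83 CPM, SD, n = 2), followed by the ExE (extraembryonic) mesoderm-like class (206 ± 23.3 CPM) and the allantois-like class (140 ± 4.44 CPM). The libraries of each of these classes lay apart from those of the next, and Bmp4 was lowest in midbrain and hindbrain-like cells (1.08 ± 0.533 CPM). Bmp2 also led in mesenchyme-like cells (107 ± 30.7 CPM), where its libraries overlapped with those of haematoendothelial progenitor-like cells (88.7 ± 19.6 CPM). Cardiomyocyte-like cells came next with Bmp2 at 61.5 ± 1.94 CPM, and they had the highest levels of Bmp5 (35.2 ± 5.56 CPM) and of Bmp7 (59.6 ± 6.60 CPM). Bmp7 followed in the notochord-like (45.4 ± 1.71 CPM) and gut-like (36.3 ± 0.811 CPM) classes. CPM from 3′ counts are not divided by gene length, and levels are compared here between classes and not between genes.

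The response genes were spread more widely. Id1 and Id3 were present at high levels in almost every class apart from blood. Id2 was so in most classes but was low in endothelium-like (65.4 ± 12.6 CPM) and presomitic and caudal mesoderm-like cells (77.5 ± 8.19 CPM). Id3 was highest in neural crest-like cells (1381 ± 169 CPM), well above forebrain-like (805 ± 74.4 CPM) and gut-like cells (795 ± 40.3 CPM), whose libraries overlapped. Id2 peaked in ExE ectoderm-like cells (1404 ± 4.16 CPM), with neural crest-like cells at 751 ± 13.6 CPM and cardiomyocyte-like cells at 526 ± 19.8 CPM. Id1 was at 613 ± 12.7 CPM in cluster 11, whose leading genes include Mixl1, Mesp1 and Cdx4, followed by ExE ectoderm-like (540 ± 64.6 CPM) and gut-like cells (533 ± 84.7 CPM). In blood progenitor-like cells these genes were at 19.1 ± 6.53 CPM (Id3), 9.20 ± 5.48 CPM (Id2) and 35 ± 8.10 CPM (Id1), their lowest values over the classes. Msx1 was at 299 ± 10.1 CPM in ExE mesoderm-like, 295 ± 10.4 CPM in cluster 11 and 283 ± 0.491 CPM in mesenchyme-like cells, of which the libraries of the leading pair overlapped. Msx2 was at 176 ± 44.1 CPM in cluster 11 and 103 ± 11.7 CPM in surface ectoderm-like cells, with ExE mesoderm-like cells at 102 CPM. Smad6 was highest in allantois-like cells (44.7 ± 0.656 CPM) and lay well apart from the next class, cardiomyocyte-like cells (20.8 ± 8.75 CPM).

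**Figure D1:**
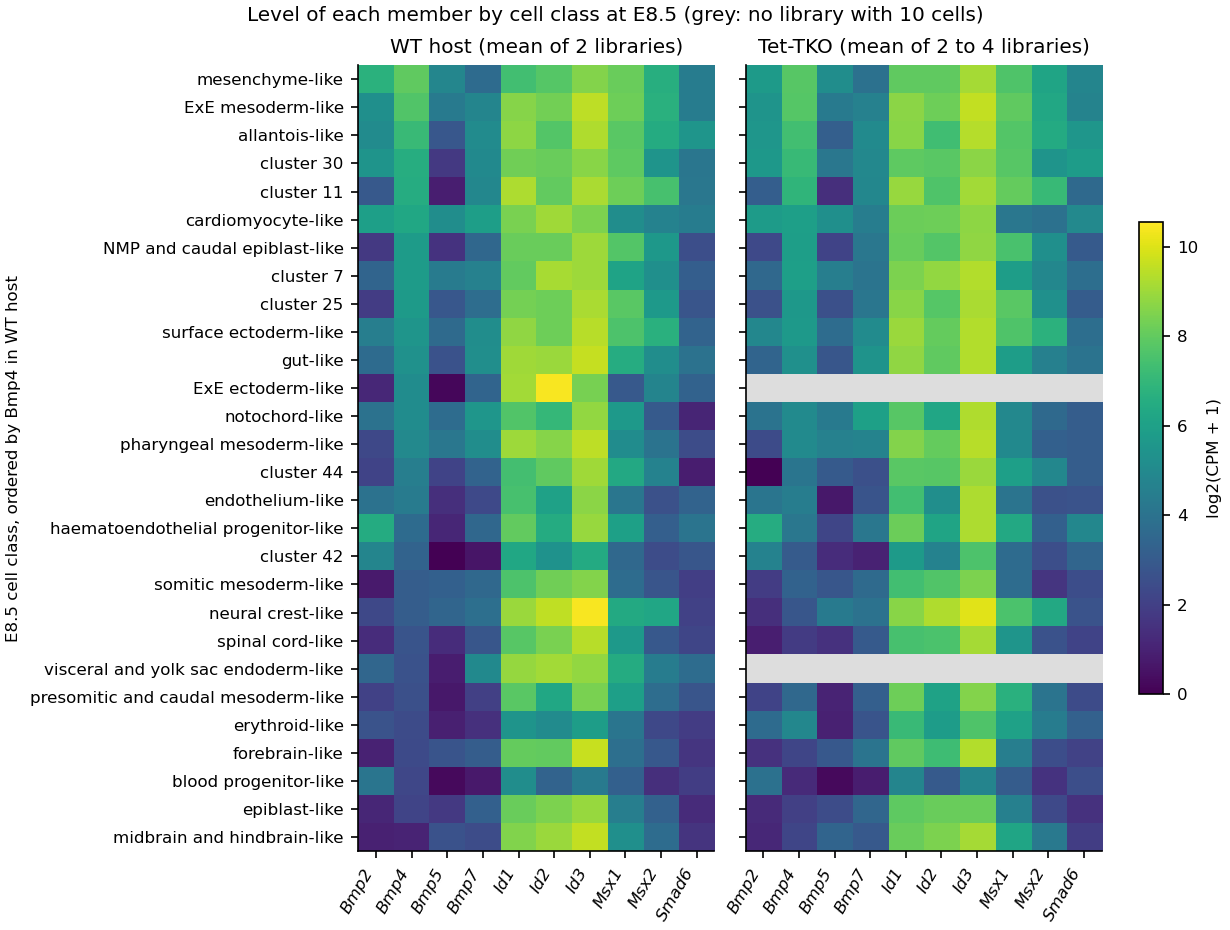
Colours give log2(CPM + 1) of each member (columns) in each E8.5 cell class (rows, ordered by Bmp4 in WT host), as the mean over the 2 WT host libraries on the left and over the Tet-TKO libraries on the right. Bmp4 is brightest in the mesenchyme-like, ExE mesoderm-like and allantois-like rows of both genotypes, the Id genes are bright in most rows, and grey rows had no Tet-TKO library with 10 cells.

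Over the 28 classes with WT host levels, the Id genes and the Msx genes each varied together, and the ligands less so. Id1 correlated with Id3 (Pearson's r = 0.86 on log2(CPM + 1)) and with Id2 (r = 0.84), Msx1 with Msx2 (r = 0.84), and Bmp4 with Msx2 (r = 0.75) more than with Id1 (r = 0.36), Id2 (r = 0.27) or Id3 (r = 0.27). Between ligands r ran from 0.25 (Bmp2 and Bmp5) to 0.63 (Bmp5 and Bmp7). Bmp7 was closer to Id1 (r = 0.75) than to any ligand, and Bmp2 closer to Smad6 (r = 0.69). Among all genes of at least 20 CPM in some class, the closest to Bmp4 were Spin2c (r = 0.89), Lypd6 (r = 0.87) and the mesodermal transcription factor Hand2 (r = 0.86). The closest to Id3 were Lin28a (r = 0.90) and Trim71 (r = 0.90), RNA-binding proteins of early embryonic cells, and Tsen34 (r = 0.90). Those closest to Smad6 were Ugp2 (r = 0.89), Plac1 (r = 0.88) and Smad7 (r = 0.87), the other inhibitory SMAD. Closest to Bmp2 was Ppic (r = 0.88), to Bmp5 Tiparp (r = 0.81) and to Bmp7 Ube4b (r = 0.84). These are descriptions over classes that share libraries, and no test was made of them.

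Whole libraries were compared to ask how much of each gene the Tet-TKO fraction of an E8.5 embryo made. Bmp4 was at 45.9 and 35.2 CPM in the WT host libraries and at 102, 87.5, 67.4 and 68.5 CPM in Tet-TKO libraries 1 to 4. The groups did not overlap, and the log2 fold change in edgeR's quasi-likelihood test was 0.94 (SE 0.26, adjusted p = 0.0689). Bmp5 was at 6.13 ± 0.214 CPM in WT host and 11.8 ± 1.96 CPM in Tet-TKO (log2 fold change 0.85, SE 0.14, adjusted p = 0.0129), and Smad6 at 10.1 ± 2.61 and 16.8 ± 1.86 CPM (0.65, SE 0.17, adjusted p = 0.0615). Calls needed an adjusted p under 0.01 together with a log2 fold change of at least 1 in either direction. None of the members was called in this fit, which had no replicate block, where 0.588% of all 21074 genes tested were called higher and 2.05% lower. DESeq2 called none of them either, and 4 members (Bmp4, Bmp5, Id2 and Smad6) had an unadjusted p under 0.05 in edgeR, as had 26.7% of all genes. In 6 members (Bmp2, Bmp4, Bmp5, Id3, Msx1 and Smad6) every Tet-TKO library lay above the WT host pair, as was so for 23% of all genes, and in Id2 all lay below, as for 17.9%. In counts summed over all cells, fewer cells of a class and less RNA per cell cannot be told apart.

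**Figure D2:**
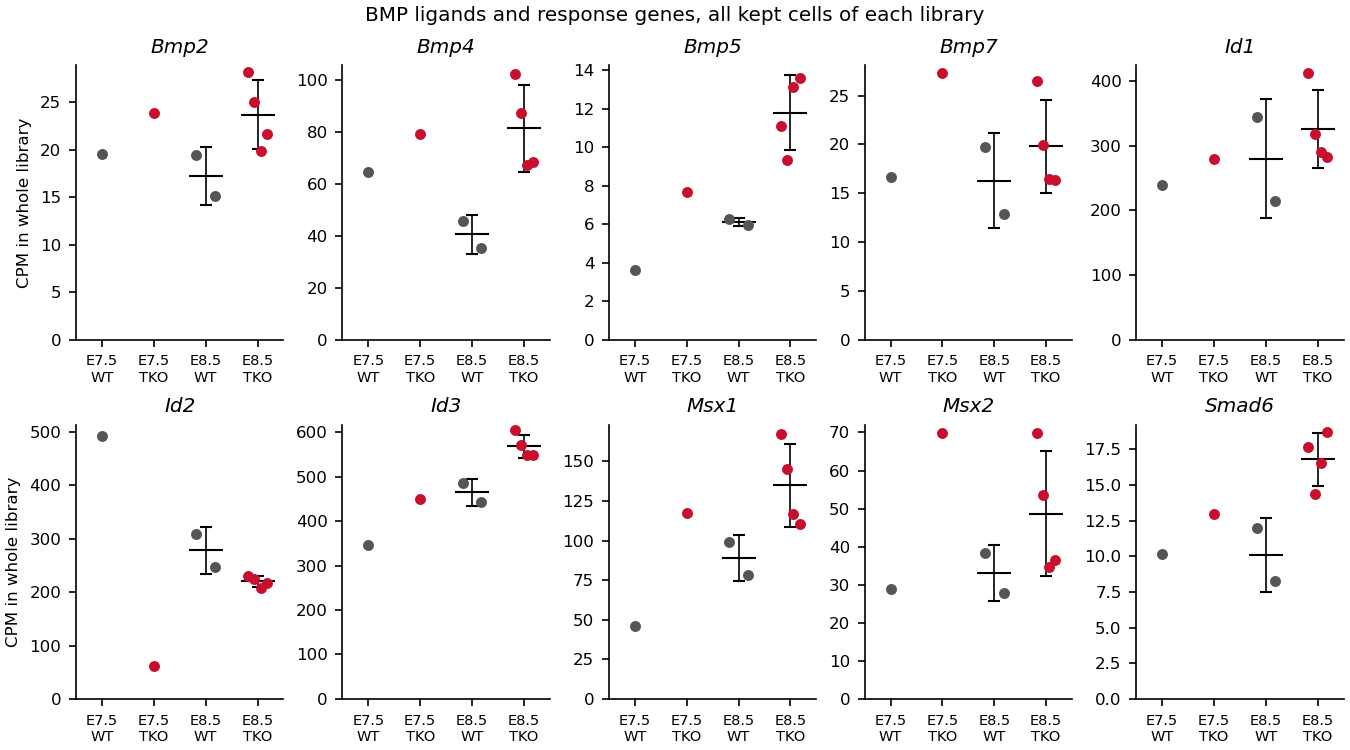
Each panel gives a member's level in CPM over all cells of a library, with 1 point per library, and at E8.5 a line for the mean with bars for its SD (n = 2 WT host, n = 4 Tet-TKO). Bmp4, Bmp5 and Smad6 have all E8.5 Tet-TKO points above those of WT host, and Id2 at E7.5 stands at 493 CPM in WT host and 62.3 CPM in Tet-TKO.

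The classes richest in Bmp4 had a larger mean share of the Tet-TKO cells. Allantois-like cells were 8.40% and 4.99% of WT host and 17.5%, 18.9%, 8.69% and 7.64% of Tet-TKO cells, so that the groups overlapped. The other shares did not overlap. Mesenchyme-like cells were 3.95% ± 0.378 of WT host and 9.60% ± 0.472 of Tet-TKO cells, and ExE mesoderm-like cells 1.13% ± 0.538 and 4.33% ± 1.83. Erythroid-like cells, which had little Bmp4, were 20% ± 7.18 of WT host and 0.611% ± 0.355 of Tet-TKO cells. When the WT host level of each class was weighted by the class makeup of each Tet-TKO library, Bmp4 came to 79.8 CPM, close to the 81.4 CPM measured in Tet-TKO and above the 40.6 CPM of WT host. For Id2 the same calculation gave a mean of 293 CPM, and each of the 4 Tet-TKO libraries lay below the value for its own makeup (mean 220 CPM, against 278 CPM in WT host). For Bmp5 it gave a mean of 9.71 CPM, and each Tet-TKO library lay above the value for its own makeup. Bmp2 and Msx1, like Id2, lay below it in each Tet-TKO library. The log2 of mean Tet-TKO over this value was -0.14 and -0.15, against -0.41 for Id2. The share of all genes that lie to 1 side in this way was not computed. With an equal number of cells per class drawn from each library (20 classes, 933 cells per library), the log2 fold change of Bmp4 was 0.00 (SE 0.16) and that of Bmp5 0.19 (SE 0.17, adjusted p = 0.626), while Id2 was at -0.41 (SE 0.15, adjusted p = 0.252). No member was called there in edgeR or DESeq2, 2 (Bmp2 and Id2) had an unadjusted p under 0.05, as had 15% of all genes, and 0.18% of 14992 genes were called higher and 0.374% lower.

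**Figure D3:**
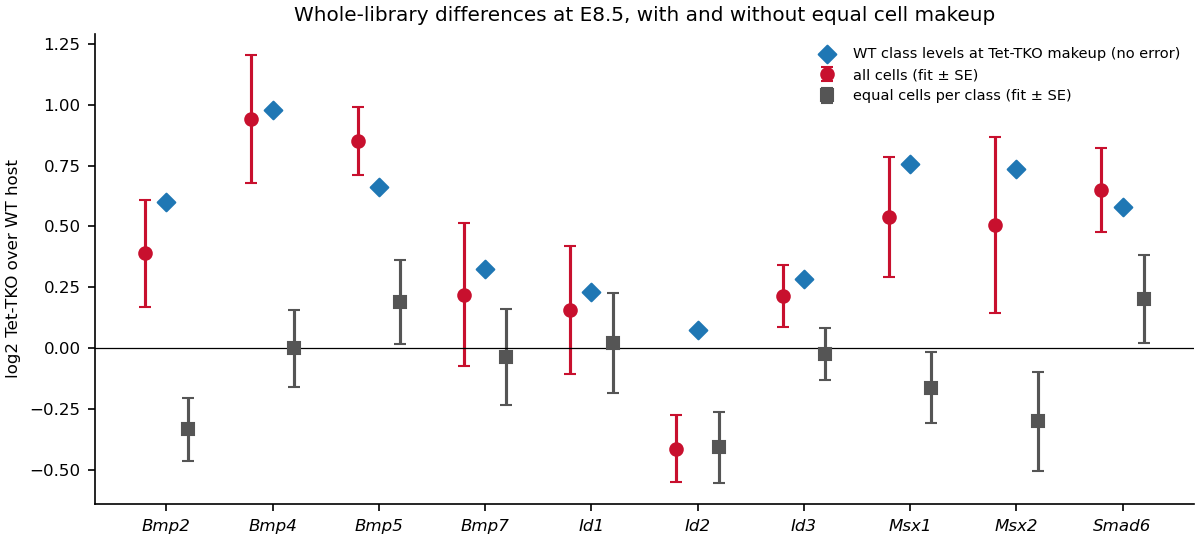
For each member the log2 of Tet-TKO over WT host at E8.5 is given from all cells (red, fit with SE), from WT host class levels at the Tet-TKO class makeup (blue, no error) and from equal cells per class (grey, fit with SE). Bmp4 is at 0.94, 0.98 and 0.00, whereas Id2 is at -0.41, 0.07 and -0.41.

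Comparison within classes addressed whether mutant cells of a kind differ from host cells of that kind. Of 260 pairs of a member and a class, 228 had enough counts to be tested. Bmp7 was called lower in cardiomyocyte-like cells, and Id3 and Msx1 were called higher in erythroid-like cells. Both higher calls were lost with marked doublets removed, and the Bmp7 call was lost when either WT host library was left out. The 2 higher and 1 lower calls are 1.32% of the comparisons. Over all genes 0.567% of the gene and class comparisons were called in either direction, 0.246% higher and 0.32% lower. The median log2 fold change was 0.01 for the members and 0.01 for all genes. An unadjusted p under 0.05 was reached in 19.7% of the member comparisons (29 higher, 16 lower) and in 11.2% of all comparisons. Where groups are said below not to overlap within a class, the share of all genes for which this holds is not given. Sets of 4 and 2 libraries can be split in only 15 ways, so that a lack of overlap says little by itself.

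Bmp7, a ligand of the heart, notochord and gut, was at 54.9 and 64.2 CPM in cardiomyocyte-like cells of the WT host libraries and at 22.9, 20.6, 16.3 and 25.4 CPM in Tet-TKO libraries 1 to 4, from 40 to 185 UMIs per library. All Tet-TKO libraries lay below both WT host libraries, and the log2 fold change was -1.54 (SE 0.20, edgeR adjusted p = 0.00478); 0.571% of the genes tested in this class were called lower. Cardiomyocyte-like cells were the class with the most Bmp7 in WT host and had less of it than the notochord-like class in Tet-TKO (63.0 ± 20.6 CPM, n = 3). The class held 421 WT host and 512 Tet-TKO cells in a pair of clusters of similar size in each genotype. Cluster 36, led by the sarcomere genes Ttn, Actc1 and Myh7, had a log2 fold change in Bmp7 of -1.72 (adjusted p = 0.00189), and cluster 37, led by Sfrp5, Tbx5 and Hcn4, of -1.17 (adjusted p = 0.0903). Bmp2 (61.5 ± 1.94 against 55.1 ± 19.9 CPM) and Bmp5 (35.2 ± 5.56 against 37.1 ± 3.31 CPM) were not called in this class. Nor was Bmp4, at 75.1 and 76.9 CPM in WT host and 60.3, 69.2, 50.8 and 63.3 CPM in Tet-TKO (log2 fold change -0.37, adjusted p = 0.424), although its groups did not overlap. In cluster 37 Bmp4 was at 113 and 108 CPM in WT host and 50.4 to 75 CPM in Tet-TKO (-0.79, adjusted p = 0.129), and in cluster 36 its log2 fold change was 0.18 (adjusted p = 0.747). Summed cardiomyocyte markers were at 25010 and 26015 CPM in WT host and 13868 to 21860 CPM in Tet-TKO. Summed erythroid markers were at 2552 and 6375 CPM in WT host and 7.20 to 51.6 CPM in Tet-TKO, while Bmp7 in erythroid-like cells of WT host was at 2.11 and 1.44 CPM. Removing doublets gave -1.52 (adjusted p = 0.00809). Without WT host library 1 the log2 fold change was -1.64 (adjusted p = 0.0511) and without library 2 it was -1.43 (adjusted p = 0.103), so that the call was lost. In these fits the lone WT host library is assumed to vary like the Tet-TKO libraries. The part of a difference in stage in the Bmp7 values was not tested.

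Id2 pointed the same way in most classes, with a difference that varied in size. Its log2 fold change was below 0 in 24 of 26 classes, with a median of -0.38, and in 8 of them at an unadjusted p under 0.05, all lower. No class passed the threshold for a call. The part of the slight delay that the paper infers for Tet-TKO was not tested. Of the 2708 genes tested in every class, 14.1% were below 0 in as many classes and 3.73% were lower at an unadjusted p under 0.05 in as many. In gut-like cells Id2 was at 500 and 510 CPM in WT host and at 292, 285, 235 and 183 CPM in Tet-TKO (log2 fold change -0.95, SE 0.20, adjusted p = 0.0467). In cardiomyocyte-like cells it was at 512 and 540 CPM in WT host and at 350, 352, 273 and 216 CPM in Tet-TKO (-0.85, SE 0.22, adjusted p = 0.105). In both classes the groups did not overlap, and Tet-TKO libraries 3 and 4, the pair with more UMIs per cell, had the lowest levels. The difference in cardiomyocyte-like cells was uneven. In cluster 36 Id2 was at 534 and 535 CPM in WT host and at 225, 218, 217 and 180 CPM in Tet-TKO (log2 fold change -1.39, adjusted p = 0.000703), and in cluster 37 the log2 fold change was -0.47 (adjusted p = 0.554). When each cluster was tested on its own, 0.215% of comparisons over all genes were called higher and 0.302% lower.

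**Figure D4:**
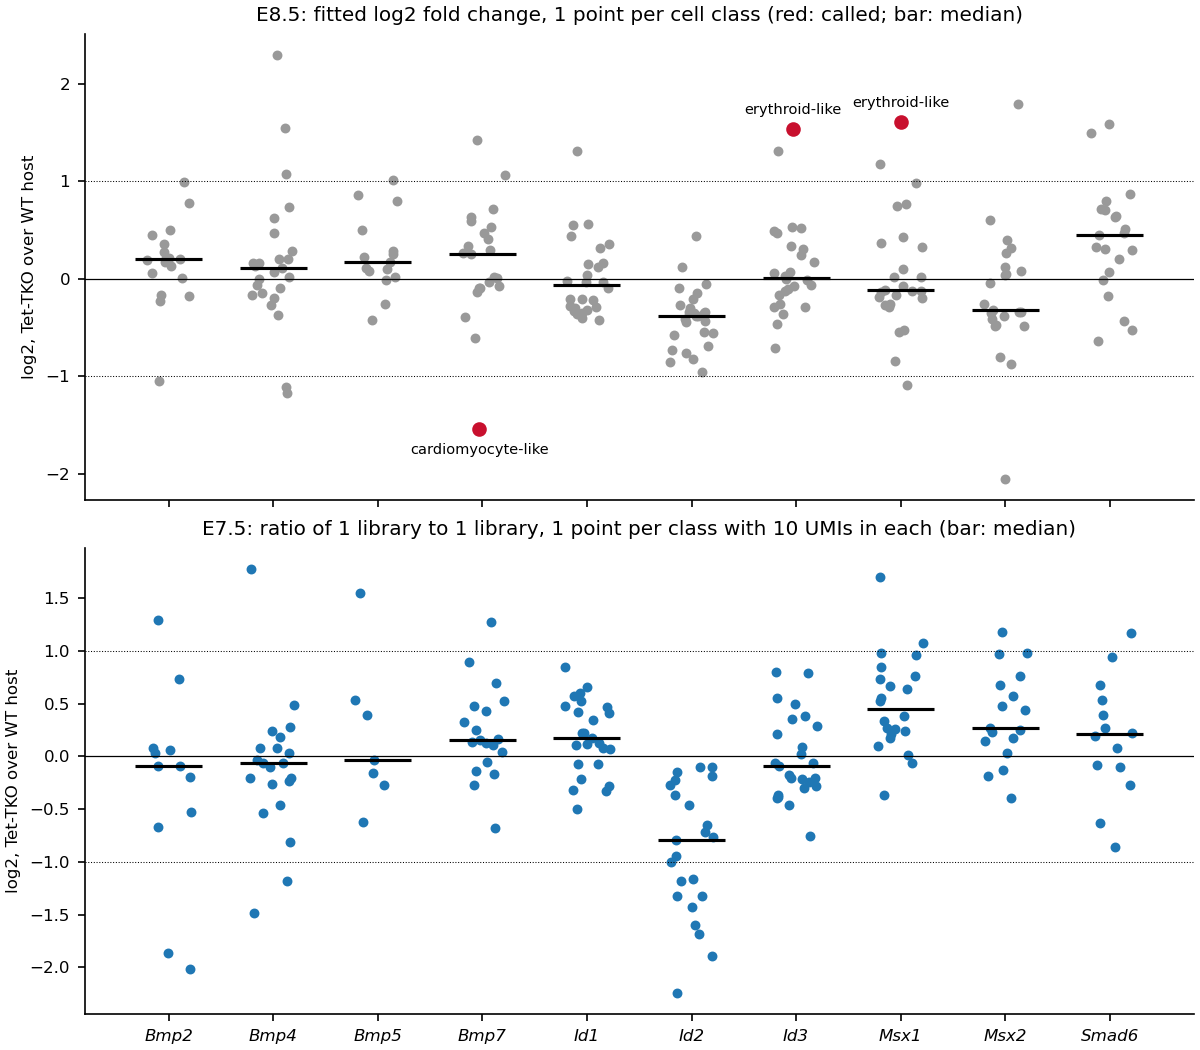
Points are cell classes; the vertical axis is the log2 of Tet-TKO over WT host, from the edgeR fit at E8.5 (top) and from 1 library of each genotype at E7.5 (bottom, classes with 10 UMIs in each), with bars at the median. Red points are the 3 calls, and Id2 lies below 0 in 24 of 26 classes at E8.5 and in every plotted class at E7.5.

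In erythroid-like cells, where the members were otherwise scarce, Id3 was at 53.1 and 63.7 CPM in WT host and at 248, 188 and 169 CPM in Tet-TKO libraries 1 to 3 (log2 fold change 1.54, SE 0.19, adjusted p = 0.00158). Msx1 was at 17.7 and 15.1 CPM in WT host and at 93.9, 53.2 and 47.6 CPM in Tet-TKO (1.61, SE 0.22, adjusted p = 0.00261). The groups did not overlap in either gene. In the same class 1.7% of the genes tested were called higher, and Bmp4 (2.29, adjusted p = 0.0128), Msx2 (1.79, adjusted p = 0.0401) and Id1 (1.31, adjusted p = 0.0551) were not called. The class held 98 Tet-TKO and 3498 WT host cells, with 10, 58 and 23 cells in the 3 Tet-TKO libraries used and 7 in library 4, which was left out. The genotypes held different clusters of this class. Cluster 1, with Id3 at 11.4 and 13.0 CPM in WT host, held 48.7% of the WT host and 9.18% of the Tet-TKO cells, and cluster 48 held 4.69% and 21.4%. In cluster 48 Id3 was at 254 and 299 CPM in WT host and 343 CPM in Tet-TKO library 2, the 1 Tet-TKO library with 10 cells there, and Msx1 was at 83.8 and 88.2 CPM in WT host and 108 CPM in that library. Doublets were marked in 35.7% of these Tet-TKO and 11.1% of these WT host cells. The share marked in a whole library was set by its number of barcodes and so differed between libraries. With marked cells removed, the log2 fold change was 1.09 for Id3 (adjusted p = 0.238) and -0.46 for Msx1 (adjusted p = 0.803), so that neither call remained and the value of Msx1 turned. This left 6 cells in Tet-TKO library 1, which dropped out of the test with Id3 at 103 and Msx1 at 47.6 CPM, and the fit rested on libraries 2 and 3. In these Id3 was at 16.2 and 31.5 CPM (7 and 27 UMIs) and Msx1 at 11.6 and 2.34 CPM (5 and 2 UMIs), against 10.6 and 11.2 CPM of Id3 and 7.44 and 6.15 CPM of Msx1 in WT host. Some markers of other cells moved with the members: summed ExE mesoderm markers were at 19.5 and 25.0 CPM in WT host and 84.3 to 221 CPM in Tet-TKO, allantois markers at 4.80 and 7.37 against 37.5 to 104 CPM, and nascent mesoderm markers at 10.6 and 22.5 against 73.4 to 184 CPM. Others fell, with visceral and yolk sac endoderm markers at 24.2 and 64.0 against 3.12 to 3.35 CPM. Endothelium markers were at 10.1 and 13.7 against 5.46 to 7.30 CPM. Summed erythroid markers were at 92511 and 145449 CPM in WT host and 27967 to 66663 CPM in Tet-TKO. The part of these differences in the levels of Id3 and Msx1 was tested only by the removal of doublets.

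Below the threshold of a call, the lowest adjusted p-values were spread over ligands and response genes. Bmp2 in mesenchyme-like cells was at 85 and 128 CPM in WT host and at 44.3, 63.7, 52.3 and 53.1 CPM in Tet-TKO (log2 fold change -1.04, SE 0.19, adjusted p = 0.0217). The groups did not overlap, but the class was made of different clusters. Some markers of other cells moved with it: summed erythroid markers were at 3919 and 4121 CPM in WT host and 5.64 to 211 CPM in Tet-TKO (4 of 8 called lower), and cardiomyocyte markers at 422 and 428 against 107 to 172 CPM (1 of 7 called lower). Others went the other way, with neural crest markers at 28.1 and 41.5 against 61.1 to 113 CPM, none of them called. Summed mesenchyme markers, those of the class itself, were at 3935 and 4980 CPM in WT host and 2207 to 2735 CPM in Tet-TKO (2 of 6 called lower). The part of these marker differences in the result was not tested. Cluster 41, led by Postn, Ccn4 and Prss35, held 47.0% of its WT host and 3.76% of its Tet-TKO cells, and cluster 8, led by Tdo2, Lum and Col3a1, 20.9% and 49.5%. Within cluster 41 the log2 fold change of Bmp2 was -0.53 (adjusted p = 0.281) and within cluster 8 it was 0.06 (adjusted p = 0.949). Msx1 in midbrain and hindbrain-like cells was at 33.5 and 40.7 CPM in WT host and at 83.2, 76.3, 71.5 and 61.7 CPM in Tet-TKO (0.99, SE 0.18, adjusted p = 0.0340). All Tet-TKO libraries lay above, and cluster 17 of this class, led by the midbrain-hindbrain boundary genes En1, En2 and Pax5, had a log2 fold change of 1.84 (adjusted p = 0.00294). Cluster 13, led by Vgll3, Egr2 and Msx3, had one of -0.15 (adjusted p = 0.848), and it held 51.7% of the WT host and 57.1% of the Tet-TKO cells of the class. Msx1 in presomitic and caudal mesoderm-like cells had a log2 fold change of 0.77 (SE 0.15, adjusted p = 0.0593). Id3 in midbrain and hindbrain-like cells pointed the other way (-0.47, SE 0.10, adjusted p = 0.0676). Bmp7 in forebrain-like cells had a log2 fold change of 1.06 (SE 0.22, adjusted p = 0.0688).

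**Figure D5:**
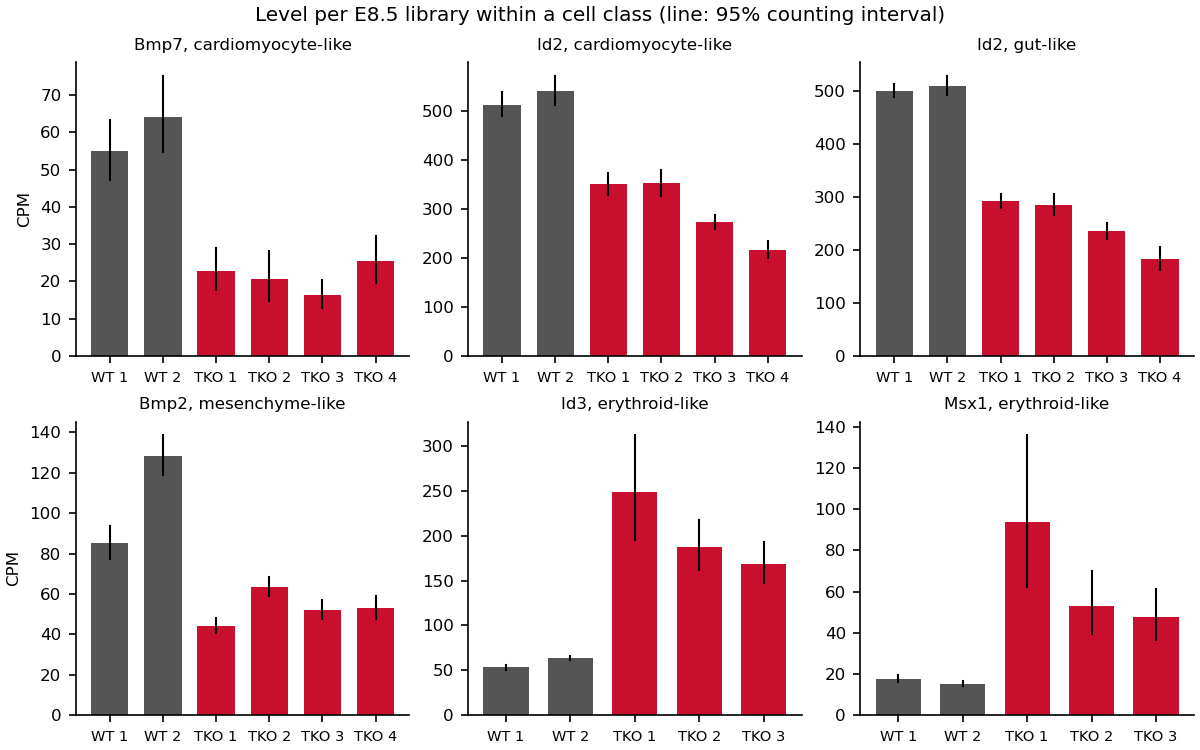
Bars give the level in CPM per E8.5 library in the class named above each panel, with lines for the 95% exact Poisson interval, which covers counting error only. The Tet-TKO bars of Bmp7 (16.3 to 25.4 CPM) are all below the WT host bars (54.9 and 64.2 CPM), and those of Id3 in erythroid-like cells (169 to 248 CPM) are all above (53.1 and 63.7 CPM).

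Whether the genotype difference itself varied from class to class was tested with class by genotype terms over the 20 classes with 10 cells in every library, which leaves out erythroid-like cells. The difference varied at an adjusted p under 0.01 for Bmp7 (1.62e-05), Id3 (0.000916), Id2 (0.00808) and Msx1 (0.00825), where 4.76% of 15721 genes passed. Bmp7 ranged from -1.54 in cardiomyocyte-like to 1.42 (SE 0.76, adjusted p = 0.640) in presomitic and caudal mesoderm-like cells over all classes tested. The latter value rests on 9 and 1 UMIs in WT host (5.24 and 0.724 CPM), and Tet-TKO library 1 was at 16.1 CPM against 5.36 to 6.04 CPM in the others. The difference in Bmp7 passed in 6 of 7 fits that left out a library or summed the similar Tet-TKO libraries. Id3 passed in 4 of these fits, and Id2 and Msx1 in 2 each, as did Id1, which had an adjusted p of 0.0121 over all libraries. Without WT host library 2 none of the members passed, with an adjusted p of 0.0373 for Bmp7.

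At E7.5 a single library of each genotype allows no test, and intervals are 95% exact Poisson intervals for counting error. Over whole libraries Id2 was at 493 CPM in WT host and 62.3 CPM in Tet-TKO. ExE ectoderm-like cells, to which injected ES cells hardly contribute, held 80.5% of the Id2 UMIs of WT host and were 26.2% of its cells, against 0.254% of the Tet-TKO cells. Without ExE ectoderm-like and visceral and yolk sac endoderm-like cells, but with ExE mesoderm-like cells kept, Id2 was at 115 CPM in WT host and 58.8 CPM in Tet-TKO. Bmp4 was also made by this tissue, which held 50.3% of its UMIs in WT host, and without the same classes Bmp4 was at 49.6 CPM in WT host and 79.3 CPM in Tet-TKO. ExE mesoderm-like cells, rich in Bmp4 and kept, were 1.05% of WT host and 3.96% of Tet-TKO cells. Within classes Bmp4 was higher in Tet-TKO in 11 and lower in 15, with a median log2 of -0.06.

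Within E7.5 classes Id2 was lower in Tet-TKO in all 26 classes with 10 cells in each library, with a median log2 of -0.97. Of the 4307 genes with UMIs in both libraries in every class, 1.04% were lower in all of them and 0.418% had a median as low, and the median over all these genes was -0.04. In cardiomyocyte-like cells Id2 was at 317 CPM in WT host and 105 CPM in Tet-TKO (log2 -1.60, interval -1.84 to -1.36). In gut-like cells, of which cluster 28 held 31.4% in WT host and 2.53% in Tet-TKO, it was at 108 and 22.9 CPM (-2.24, -2.80 to -1.73), and in epiblast-like cells at 63.1 and 31.6 CPM (-1.0, -1.23 to -0.76). In allantois-like (188 and 176 CPM) and ExE mesoderm-like cells (148 and 133 CPM) the interval of the log2 included 0. Markers of ExE ectoderm-like cells were also counted outside that class. Summed, they had a median of 12.2 CPM over the other WT host classes and 4.20 CPM over those of Tet-TKO, against 716 CPM in ExE ectoderm-like cells, and RNA of that class at this share would carry a median of 22.3 CPM of Id2 in WT host classes and 7.70 CPM in Tet-TKO classes. The median level of Id2 over the same classes was 108 CPM in WT host and 53.8 CPM in Tet-TKO. In single classes the markers reached 444 CPM in WT host and 109 CPM in Tet-TKO, a share that would carry 813 and 199 CPM of Id2. At E8.5 the corresponding share would carry a median of 7.20 CPM in WT host and 4.43 CPM in Tet-TKO, of median levels of 284 and 226 CPM. In single E8.5 classes it would carry up to 285 CPM in WT host and 334 CPM in Tet-TKO. These values take every marker count as RNA of ExE ectoderm-like cells. Of such cells E8.5 Tet-TKO library 1 held 1 and the other Tet-TKO libraries 0. Expression of the markers by a class itself was not tested. The E7.5 values cover 27 WT host and 25 Tet-TKO classes, so that the sets differ. The part of RNA from ExE ectoderm-like cells in the differences was not tested beyond these values.

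The Msx genes pointed the other way in most E7.5 classes. Msx1 was higher in Tet-TKO in 22 of 26 classes with a median log2 of 0.45, and 10.2% of the 4307 genes were higher in as many. Msx2 was higher in 19 of the 24 classes with UMIs in both libraries with a median of 0.38, and 8.75% of 8450 genes with as many such classes were higher in as large a share. Msx1 was at 46.0 CPM over the whole WT host library and 117 CPM over that of Tet-TKO. It was at 5.41 and 17.5 CPM in epiblast-like cells (log2 1.70, interval 1.01 to 2.47) and at 188 and 298 CPM in mesenchyme-like cells (0.67, 0.45 to 0.89). In the ExE mesoderm-like class Msx1 was at 250 and 251 CPM and Bmp4 at 236 and 242 CPM. Bmp2, which is made by gut endoderm and visceral endoderm, was at 34.5 CPM in gut-like cells of WT host and 4.17 CPM in those of Tet-TKO (log2 -3.05, interval -4.52 to -1.89, with 6 UMIs in 79 Tet-TKO cells), beside the same difference in clusters as for Id2. In haematoendothelial progenitor-like cells Bmp2 was at 137 and 142 CPM.

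Of 56 other genes of the BMP pathway, 52 were tested in some E8.5 class, in 766 comparisons with a median log2 fold change of 0.10. In these 5 comparisons were called, where 0.567% of the comparisons over all genes were. Of the receptors (10 genes, 171 comparisons) 1 comparison was called, lower. Acvrl1, the endothelial type I receptor, was at 28.3 and 26.0 CPM in allantois-like cells of WT host and at 5.59 to 6.84 CPM in Tet-TKO (log2 fold change -2.14, adjusted p = 0.000768). Of the other ligands 2 comparisons were called, both lower in mesenchyme-like cells: Gdf2 (BMP9), at 5.18 and 5.87 against 0.538 to 0.966 CPM (-3.12, adjusted p = 0.00330), and Gdf6, at 7.96 and 10.6 against 2.96 to 3.49 CPM (-1.53, adjusted p = 0.00950). As for Bmp2, these differences stand beside the different clusters and the lower erythroid, cardiomyocyte and mesenchyme markers of that class. Of the 14 antagonists and 7 SMAD genes none was called. Of the other response genes Hand2 (2.62, adjusted p = 0.00343) and Tbx3 (2.27, adjusted p = 0.00827) were called higher, in the erythroid-like class whose doublets and mesodermal markers are given above. Some of the response genes listed, among them Hand1, Tbx20 and Cdx2, were also used as cell class markers.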

How the data were processed

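Single-cell RNA-seq (10x Genomics 3′ v3) was carried out on 8 libraries of sorted chimaera cells. Cell Ranger and mm10 were used by the authors, who deposited UMI counts that had not been normalised, for each gene in each barcode. The methods and the header of the counts name different versions of Cell Ranger. Totals were 65601218 to 136982886 UMIs per library, and intervals and floors cover counting error only.

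Barcodes below 1500 UMIs were dropped, as were those above 30% mitochondrial or 35% ribosomal UMIs. After removal of the members and the BMP pathway list, the 2500 most variable genes gave 50 principal components, which were corrected by mutual nearest neighbours and clustered (scanpy 1.11.5, Leiden resolution 2). A cluster was named where at least 3 markers of a cell type were raised and led the other types. Doublets were scored with Scrublet and removed only as an alternative. The share marked in each library was set in advance at 0.8% per 1000 barcodes, which came to 6.68% of cells at E8.5.

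Counts were summed per class and library (10 cells or more) and tested with edgeR 4.0.16 (filterByExpr, TMM, glmQLFit, glmQLFTest) in R 4.3.3, without covariates, with Benjamini-Hochberg adjustment over the genes of a class. The same test was run on whole libraries, on equal cells per class, and with class by genotype terms beside terms for library and class. Levels are CPM of these sums. DESeq2 1.42.0 was an alternative, beside other size factors, filters, thresholds, clusterings, doublet removal, summed libraries, left-out libraries and a replicate block. The tests per cluster and the alternatives of the class by genotype test were chosen after seeing the data. On simulated sums of cardiomyocyte-like cells, edgeR recovered 81% of genes changed by a log2 fold of 2 and 29% of those changed by 1 over 10679 genes, and 84% and 64% over 7402 genes in erythroid-like cells. A gene counted as recovered at an adjusted p under 0.01, without the fold threshold that calls needed. Simulated libraries were drawn independently, unlike the similar pairs of Tet-TKO libraries.

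Members and gene lists were chosen with earlier results of these data known. The genes named are the members, the called member by class comparisons, the called genes of the pathway list and, for each member, up to 3 genes of at least 20 CPM in some class with the highest Pearson correlation over WT host classes. Other values of single genes, such as those of uncalled comparisons and of single clusters, were chosen after they were seen. Promoter sequences are from RefSeq. No test was made at E7.5.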

Additional observations from a re-analysis of the deposited data

Results flagged for a closer look

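In 4 members the genotype difference at E8.5 varied between cell classes, by the class by genotype terms over 20 classes in edgeR's quasi-likelihood test. For Bmp7 the adjusted p was 1.62e-05, and the log2 fold change within these classes ran from -1.54 in cardiomyocyte-like to 1.42 in presomitic and caudal mesoderm-like cells, the latter with an SE of 0.76 and from 9 and 1 UMIs in WT host. For Id3 it was 0.000916, with log2 fold changes from -0.47 in midbrain and hindbrain-like to 0.52 in endothelium-like cells. For Id2 it was 0.00808, from -0.95 in gut-like to 0.12 in mesenchyme-like cells. For Msx1 it was 0.00825, from -1.09 (SE 0.46, adjusted p = 0.375) in cardiomyocyte-like to 0.99 in midbrain and hindbrain-like cells. In cardiomyocyte-like clusters 36 and 37 Msx1 was at 35.7 and 68.5 CPM in WT host library 1 but 12.8 and 25.6 CPM in library 2. Of the 8 differences at the ends of these ranges, that of Bmp7 in cardiomyocyte-like cells was called within its class. Erythroid-like cells, where Id3 and Msx1 were called higher, had too few cells in 1 library to be part of this test. No Tet-TKO library stood apart in the 11 groups of 4 Tet-TKO values that were checked for outliers. These were the whole-library levels of the members and Bmp7 in cardiomyocyte-like cells. WT host libraries, the erythroid-like calls and other classes were not checked. Among the latter is Bmp7 in presomitic and caudal mesoderm-like cells, at 5.36 to 16.1 CPM in Tet-TKO. The Tet-TKO libraries were alike in pairs, which makes a lone outlier hard to find.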

How the results depend on the processing

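Bmp7 stayed lower in cardiomyocyte-like cells under 20 alternatives and called under 17. It lost the call with 30 cells per sum (-1.56, adjusted p = 0.0230) and without WT host library 1 (-1.64, 0.0511) or 2 (-1.43, 0.103), with a range of -1.64 to -1.38 over left-out libraries. Id3 and Msx1 in erythroid-like cells lost their calls at Leiden resolution 1 (1.47 and 1.83, adjusted p = 0.0105 and 0.0283) and with doublets removed, which left 2 Tet-TKO libraries (1.09 and -0.46, the latter turned, adjusted p = 0.238 and 0.803). The cause was not tested. With 1 WT host library left, the spread comes from the Tet-TKO libraries alone.

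The counts of higher (2), lower (1) and pathway (5) calls within classes became 4, 2 and 16 with DESeq2, 7, 3 and 36 without a filter on low counts, 4, 2 and 12 at an adjusted p of 0.05, and 5, 3 and 14 without correction between libraries. Higher calls were 1 with 30 cells per sum, as a minimum or drawn, and at resolution 1, and 0 without doublets. Per cluster there were 1 higher and 2 lower calls, and adjustment over all classes left 3 pathway calls. Leaving out 1 library gave 2 to 7 higher calls (7 without Tet-TKO library 3), 0 to 1 lower (0 without either WT host library) and 0 to 11 pathway calls (11 without Tet-TKO library 3, 1 and 0 without WT host library 1 and 2). In place of 4 members whose difference varied between classes, 2 passed with Tet-TKO libraries summed in pairs, and 0 to 5 passed without 1 library (2 without Tet-TKO library 3 or 4, 1 and 0 without WT host library 1 and 2).

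A replicate block gave 13 higher calls, 58 pathway calls and 1 call over whole libraries (Bmp4, 1.24). Replicate numbers are only shared: the labels do not tie them to litters, Tet-TKO libraries 3 and 4 have no WT host partner, and deviations of same-numbered libraries correlated at 0.384 for number 1 and -0.103 for number 2. The paper compared cell type proportions of each Tet-TKO sample with those of a matching WT host, but does not say which libraries match. Id2 was below 0 in 76% to 95.8% of classes over 19 alternatives. With 2 WT host libraries, 15% to 64% of genes changed by a log2 fold of 1 were recovered in simulated data at an adjusted p under 0.01. The fold threshold of a call was not applied there, and differences of this size or smaller may have been missed. Each simulated library was drawn independently, whereas Tet-TKO libraries 1 and 2, and 3 and 4, were closely alike.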
